A study of Homo sapiens with 15 samples.

Results

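The protein part of the cytosolic ribosome is encoded by genes named RPL and RPLP for the large (60S) subunit and RPS and RPSA for the small (40S) subunit. Of 17999 gene symbols in the deposited expression table, 84 fit these name patterns, 52 for the large subunit and 32 for the small subunit. The rule reads the symbol and uses no measured value, though the family was picked for description with earlier results of these data known. Of the 84, 7 are paralogs whose symbols add L or L1 to that of another ribosomal protein gene (RPL3L, RPL7L1, RPL10L, RPL22L1, RPL26L1, RPL39L and RPS27L), and the other 77 are called canonical here. In the table, 82 of the 84 reached at least 1 FPKM (mapped fragments scaled to transcript length and library size) in at least 1 library and were tested. The genes below that level were RPL10L, with at most 0.149 FPKM, and RPL3L, with at most 0.0447 FPKM. The lowest gene to pass was RPL36A, with at most 1.88 FPKM.

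The libraries were polyadenylated RNA of wild-type H1 and HUES9 cells, both established human embryonic stem cell lines, and their derivatives. Self-renewing neuromesodermal progenitors (srNMPs), cells that can yield spinal cord and paraxial mesoderm, were sampled at passage 8 and passage 25. Neural induction of srNMPs gave neuron progenitors after 7 days under conditions labelled RABC and RASS, and dorsal and ventral neurons. For these 6 groups there was a library of each line. Skeletal muscle induction was sampled at day 40 and day 50 in HUES9 only, and undifferentiated embryonic stem cells (ESCs) gave 1 HUES9 library. Replicates are therefore cell lines. Nothing in the labels tells of separate cultures beyond that, so p-values measure only the spread between these libraries.

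Every ribosome carries one copy of nearly every canonical ribosomal protein, so cells make these proteins in near-equal amounts. Their mRNAs are among the most abundant in growing cells. Most carry a 5′ terminal oligopyrimidine (TOP) tract, a run of C and T that begins with C at the first base, through which mTOR and LARP1 control their stability and translation. Ribosome production is high in proliferating stem and progenitor cells and is known to fall as cells leave the cell cycle. Some paralogs can take the place of their canonical partner in the ribosome.

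Depth relative to the average library, estimated from the smallest values, was 0.954 to 1.051, and the absolute depth is unknown. The cell state labels were checked against marker genes. The 7 pluripotency markers summed to 2138 FPKM in the ESC library, and 8 neuron markers to 1392 to 1765 FPKM in neurons, against 145 to 415 FPKM in srNMPs. The muscle libraries held 9 skeletal muscle markers at 3144 to 4842 summed FPKM and also 6 fibroblast markers, such as COL1A1, at 11349 to 18493 FPKM. The same fibroblast markers summed to at most 21.5 FPKM in all other libraries. In bulk RNA, fewer cells of a type and less of an mRNA per cell cannot be told apart. The line labels of the RASS pair went against those of the other pairs. Across all tested genes, the HUES9 minus H1 difference in RASS correlated at −0.533 to −0.167 with that of the other 5 groups, while the other 5 groups correlated with each other at 0.069 to 0.377. These libraries are called "labelled H1" and "labelled HUES9" below. The HUES9 srNMP library of passage 8 also stood apart, with more ribosomal protein mRNA than any other library.

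Together, the 84 genes took between 12.2% and 26.0% of the summed FPKM of a library. The share was 19.9% in the ESC library. In srNMPs of passage 8 it was 26.0% in HUES9 and 21.5% in H1, and at passage 25 it was 20.6% in HUES9 and 23.0% in H1. RABC progenitors had 21.5% (HUES9) and 20.5% (H1), and RASS progenitors 13.2% (labelled HUES9) and 15.1% (labelled H1). Dorsal neurons had 12.2% and 12.3% and ventral neurons 13.1% and 13.4% in HUES9 and H1. Muscle had 16.4% at day 40 and 18.5% at day 50. The share averaged 12.7% ± 0.584 in neurons (SD, n = 4), against 22.8% ± 2.39 in srNMPs (SD, n = 4), and the libraries did not overlap. RASS progenitors lay nearer to neurons than to RABC progenitors, and both muscle libraries lay between neurons and srNMPs.

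**Figure D1:**
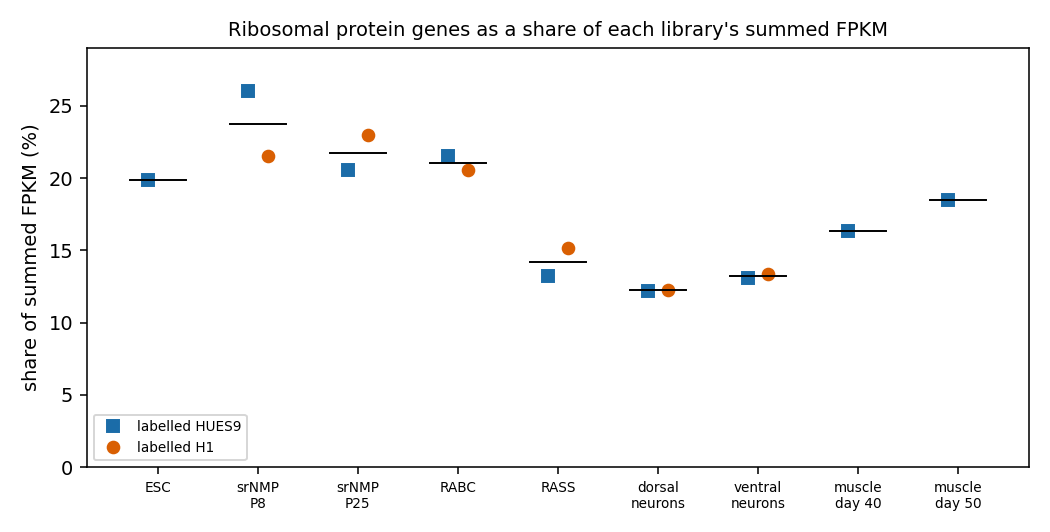
Summed FPKM of the 84 ribosomal protein genes as a percent of the summed FPKM of all genes, 1 point per library (squares, labelled HUES9; circles, labelled H1) with a line at each group's mean. ESC, srNMP and RABC libraries lie between 19.9% and 26.0%, and RASS and neuron libraries between 12.2% and 15.1%.

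On the FPKM scale, which is per length, 73 members averaged over 100 FPKM across the 15 libraries and 26 averaged over 1000 FPKM. High averages were those of RPS2 (2534 FPKM), a 40S protein near the mRNA entry, RPL41 (2285 FPKM), the smallest ribosomal protein, and RPL7A (1965 FPKM). Among canonical genes, RPL36A (0.686 FPKM) and RPS10 (4.51 FPKM) were lowest. RPL36A has a near-identical copy, RPL36AL, and RPS10 and RPL17 each overlap a readthrough transcript in current annotation, so the authors' counting may have split their reads and their levels are uncertain. The remaining lowest averages belonged to paralogs: RPL3L (0.00746 FPKM), RPL10L (0.0328 FPKM) and RPS27L (5.20 FPKM).

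Members moved together across libraries. The median pairwise Pearson r of log2(FPKM + 1) among 77 canonical members was 0.917 over the 15 libraries, a description in which all members share each library's scaling. The median SD of a member over the 15 libraries was 0.515 on the log2 scale, and 0.172 once each library's median over the members was taken off. RPL11 and RPL30 kept closest to that median (SD 0.087 each). RPL11 is a 60S protein that binds 5S rRNA and can inhibit MDM2. RPS26 (SD 0.872), RPS10 (SD 0.619) and RPL17 (SD 0.431) strayed furthest among canonical members. For RPS26 the deviation followed the line labels, as described further on.

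**Figure D2:**
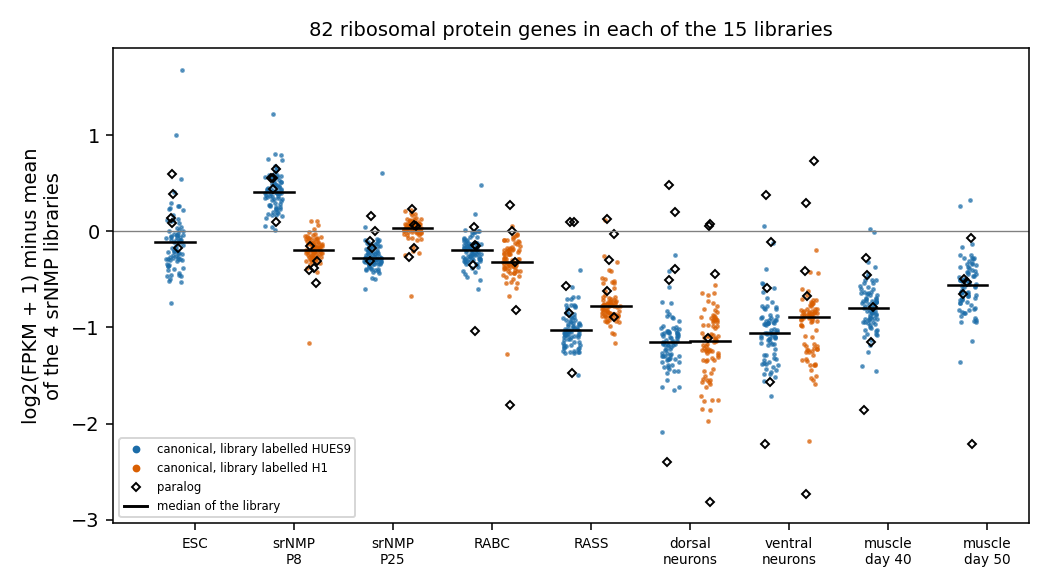
Each point is 1 of the 82 tested genes in 1 library, as log2(FPKM + 1) minus the gene's mean over the 4 srNMP libraries, with paralogs as open diamonds and each library's median as a bar. Medians of RASS, neuron and muscle libraries lie below 0, and the paralogs spread more widely than the canonical genes in neurons. The median difference of RABC from srNMPs is also below 0, by less.

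The annotated starts show the TOP feature for most of the family. Of the 84 members, 67 were matched by symbol to the RefSeq table of gene starts (GRCh38.p14, a later build than the submitters' hg18). Of these, 47 (70.1%) had an annotated start that was C followed by at least 4 further pyrimidines (C or T, read on the gene's strand), against 7.37% of 11329 tested genes and 6 of 69 (8.7%) mitochondrial ribosomal protein genes. Among paralogs it was 1 of 5, RPL22L1. The match is a description of the annotated base and names no active site. The sequences below run from 15 bases before to 15 bases from the annotated start, with the pyrimidine run from the start, or the start base alone, in capitals. The first group of 6 has the run and includes genes that stood out in the comparisons that follow.
RPL12 (chr9:127451392-127451421, minus strand): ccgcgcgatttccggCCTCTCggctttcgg
RPLP0 (chr12:120201097-120201126, minus strand): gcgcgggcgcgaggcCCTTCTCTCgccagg
RPS3 (chr11:75399503-75399532, plus strand): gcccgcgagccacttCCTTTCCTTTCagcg
RPL41 (chr12:56116618-56116647, plus strand): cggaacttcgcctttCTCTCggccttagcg
RPS21 (chr20:62387088-62387117, plus strand): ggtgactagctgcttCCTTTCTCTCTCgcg
RPL22L1 (chr3:170870181-170870210, minus strand): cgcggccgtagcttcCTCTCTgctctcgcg
The second group lacks it at the annotated base. It holds the paralogs RPL7L1 and RPS27L, which were not lower in neurons, and RPS26 and RPS4X, whose levels followed the cell line labels in most groups. The genes printed are a selection. Other members without the run fell in neurons against srNMPs, such as RPL10A (log2 difference −1.495), RPS7 (−1.345), RPL19 (−1.342) and RPL3 (−1.152). The median over the 19 tested members without it was −0.925. A link of the start sequence with the change was not tested.
RPL7L1 (chr6:42879601-42879630, plus strand): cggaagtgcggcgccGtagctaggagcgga
RPS27L (chr15:63157463-63157492, minus strand): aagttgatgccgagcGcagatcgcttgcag
RPS26 (chr12:56041903-56041932, plus strand): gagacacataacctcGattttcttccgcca
RPS4X (chrX:72277234-72277263, minus strand): gcagtctccagccccAatttctacgcgcac

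Ribosomal protein mRNA was lower in neurons than in srNMPs nearly throughout the family. Of 82 members tested, 78 fell and none rose at an adjusted p under 0.05 (limma on log2(FPKM + 1), cell line as block, Benjamini-Hochberg over 14129 genes), against 23.2% of all tested genes called lower and 28.8% called higher. The median log2 difference was −1.04 over the members and 0.053 over all genes tested. In 76 of 82 members every neuron library was below every srNMP library, which held for 19.8% of all genes. Both subunits took part: 48 of 50 large subunit and 30 of 32 small subunit genes fell, with medians of −0.991 and −1.10. The 4 members not called were RPS26, RPL26L1, RPL7L1 and RPS27L. Proliferation genes moved with this difference, since 11 of 12 fell and their summed level was 157 to 744 FPKM in neurons, against 975 to 1197 FPKM in srNMPs. Their part in the result was not tested. The count of members called was 70 to 78 when any 1 library was left out, 50 after quantile normalization and 17 within HUES9 libraries alone. With all libraries scaled to equal summed FPKM, the median over all genes was 0.285 and that over the members −0.712, with 72 lower and 1 higher, RPL7L1.

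The largest fall among canonical members was that of RPL12, a 60S protein at the base of the stalk that recruits elongation factors. RPL12 had 549.1 (H1) and 509.4 FPKM (HUES9) in dorsal neurons and 886.8 and 733.4 FPKM in ventral neurons, against 2043 and 2387 FPKM in srNMPs of passage 8 and 2449 and 1834 FPKM at passage 25. All 4 neuron libraries were below all 4 srNMP libraries, and the log2 difference was −1.73 ± 0.17 (SE, limma adjusted p = 0.00039). RPLP0, the scaffold of the same stalk, averaged 898.8 ± 109.8 FPKM in neurons and 2521 ± 230.5 FPKM in srNMPs (SD, n = 4 each; log2 difference −1.49 ± 0.156 SE). RPL41 averaged 1154 ± 71.7 FPKM in neurons and 3692 ± 962.1 FPKM in srNMPs (SD, n = 4 each; log2 difference −1.65 ± 0.215 SE). RPS2 (−1.53), RPL23A (−1.503), RPL10A (−1.495) and RPS3 (−1.47), a 40S protein at the mRNA entry, fell by similar amounts. RPL11, close to the family's median, had a log2 difference of −1.02 ± 0.180 (SE).

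Some members moved away from the family. In an alternative fit, each library's median over the members was subtracted first. In neurons against srNMPs, 20 of 82 members then fell relative to the family and 8 rose, against 3.47% and 75.5% of all genes tested. These shares of all genes are no like background, since the subtracted median was itself lower in neurons, which raised every gene. With that many genes called, the adjustment over all genes was also lenient for the members. This alternative was chosen after the data were seen. The largest falls relative to the family were those of RPL22L1 (−1.51), RPL12 (−0.694), RPL41 (−0.613) and RPS2 (−0.503), all log2 differences. Those that rose relative to it included RPS27L (1.33), RPL7L1 (1.26), RPL26L1 (0.575), RPL15 (0.418), RPL38 (0.390) and RPS15 (0.245). RPL36A is also among the 8, but at 1.88 FPKM or less its change is compressed by the pseudocount of 1 FPKM, and nothing is read from it. RPL38, a 60S protein needed in mouse embryos for the translation of certain Hox mRNAs, still fell before the family's median was subtracted. It had 244.6, 221.5, 299.8 and 276 FPKM in neurons, against 325.2, 600.6, 411.2 and 332.5 FPKM in srNMPs, without overlap and with a log2 difference of −0.642 ± 0.204 (SE, limma adjusted p = 0.0335). RPL15 averaged 177.7 ± 23.2 FPKM in neurons and 272.2 ± 33.0 FPKM in srNMPs (SD, n = 4 each). Members with a C start and pyrimidine run had a median log2 difference of −1.10 (47 genes) and matched members without it −0.925 (19 genes), a description of overlapping ranges, −2.54 to −0.513 and −1.495 to 0.296.

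**Figure D3:**
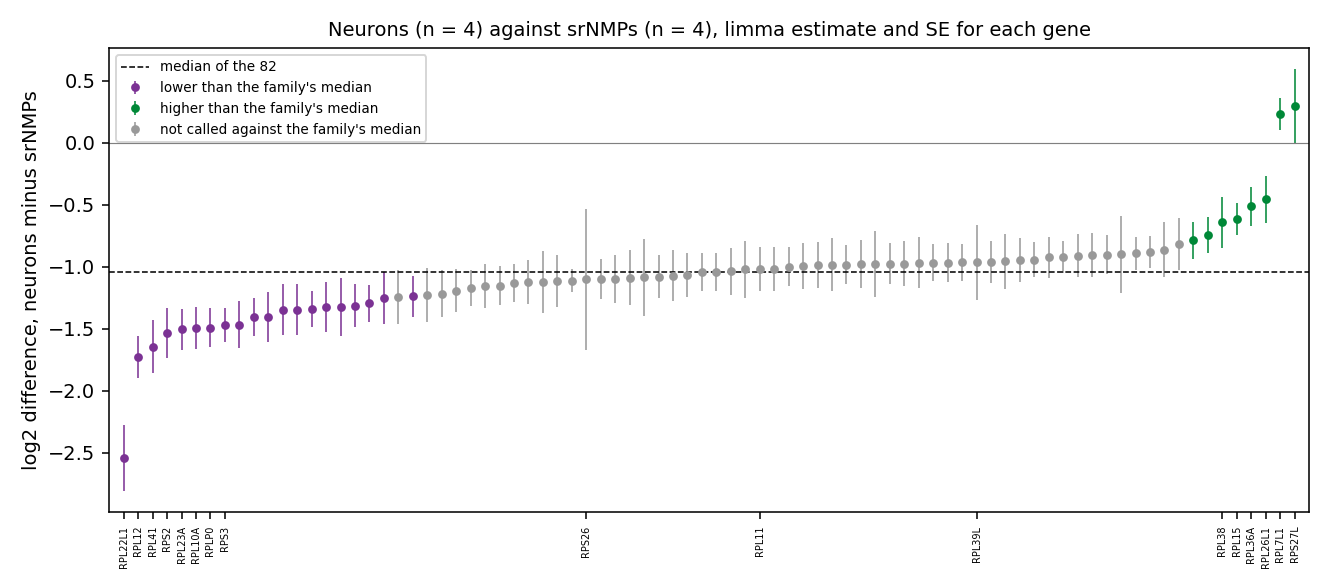
Log2 difference of neurons minus srNMPs for each of the 82 genes, with its SE, ordered from lowest to highest, with some genes named. The dashed line is the median of −1.04; colours mark the 20 genes lower and the 8 genes higher than the family's median, with RPL22L1 at −2.54 at the low end and RPL7L1 and RPS27L above 0.

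The paralogs differed most from the rest. RPL22L1, whose canonical partner RPL22 represses it in mouse cells, had 3.20, 4.58, 3.43 and 5.35 FPKM in neurons, against 22.8, 42.4, 29.8 and 22.9 FPKM in srNMPs, and the groups were far apart. The log2 difference was −2.54 ± 0.267 (SE, limma adjusted p = 0.000473), the largest fall in the family. Its level in RABC progenitors was 7.44 and 13.4 FPKM, in RASS progenitors 14.9 and 9.62 FPKM, and in the ESC library 43.7 FPKM. As a share of RPL22 it was 14.9% in the ESC library, 8.16% ± 0.500 in srNMPs (SD, n = 4) and 2.27% ± 0.734 in neurons (SD, n = 4). In muscle, RPL22L1 stood at 12.3 FPKM (day 40) and 17.7 FPKM (day 50), above all 4 neuron libraries (log2 difference 1.502 ± 0.345 SE, limma adjusted p = 0.0106), a call that was lost without the day 50 library. Its share of RPL22 was 6.33% and 7.84% in the muscle libraries, which differ in day and come from 1 line.

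RPL39L, a paralog of the exit tunnel protein RPL39 that is abundant in male germ cells in mouse, was lowest in muscle. It had 7.47 FPKM at day 40 and 5.62 FPKM at day 50, against 22.6, 47.1, 24.5 and 29.9 FPKM in srNMPs, and the log2 difference was −2.16 ± 0.392 (SE, limma adjusted p = 0.00364). Its share of RPL39 was 0.66% and 1.02% in the muscle libraries, and 2.51% ± 0.648 in srNMPs (SD, n = 4). In neurons it was 13.3, 20.6, 18.3 and 9.39 FPKM, below all srNMP libraries (log2 difference −0.964 ± 0.304 SE, limma adjusted p = 0.0325). That call was lost without any 1 of the 4 srNMP libraries except the H1 library of passage 8, and without any 1 of the neuron libraries except the H1 ventral library. Its share of RPL39 in neurons was 2.49% ± 0.976 (SD, n = 4). RPL7L1, related to RPL7 and known as a factor of 60S assembly, kept nearly the same level throughout, between 25.4 and 40.4 FPKM in all 15 libraries. Since RPL7 was lower in neurons, RPL7L1 stood at 8.99% ± 1.55 of RPL7 in neurons and 3.84% ± 0.647 in srNMPs (SD, n = 4 each). This was not particular to neurons, since RASS progenitors had 8.30% ± 0.842 (SD, n = 2), within the range of the neuron libraries. RPS27L, a p53 target related to RPS27, had 3.04 to 8.78 FPKM in all libraries, and its share of RPS27 was 0.789% ± 0.213 in neurons and 0.311% ± 0.117 in srNMPs (SD, n = 4 each). RPL26L1 averaged 16.6 ± 1.08 FPKM in neurons and 23.7 ± 6.08 FPKM in srNMPs (SD, n = 4 each; limma adjusted p = 0.0782). RPL3L, the paralog of heart and skeletal muscle, was listed at 0 in both muscle libraries, and RPL10L, a testis paralog, reached 0.149 and 0.0775 FPKM there.

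**Figure D4:**
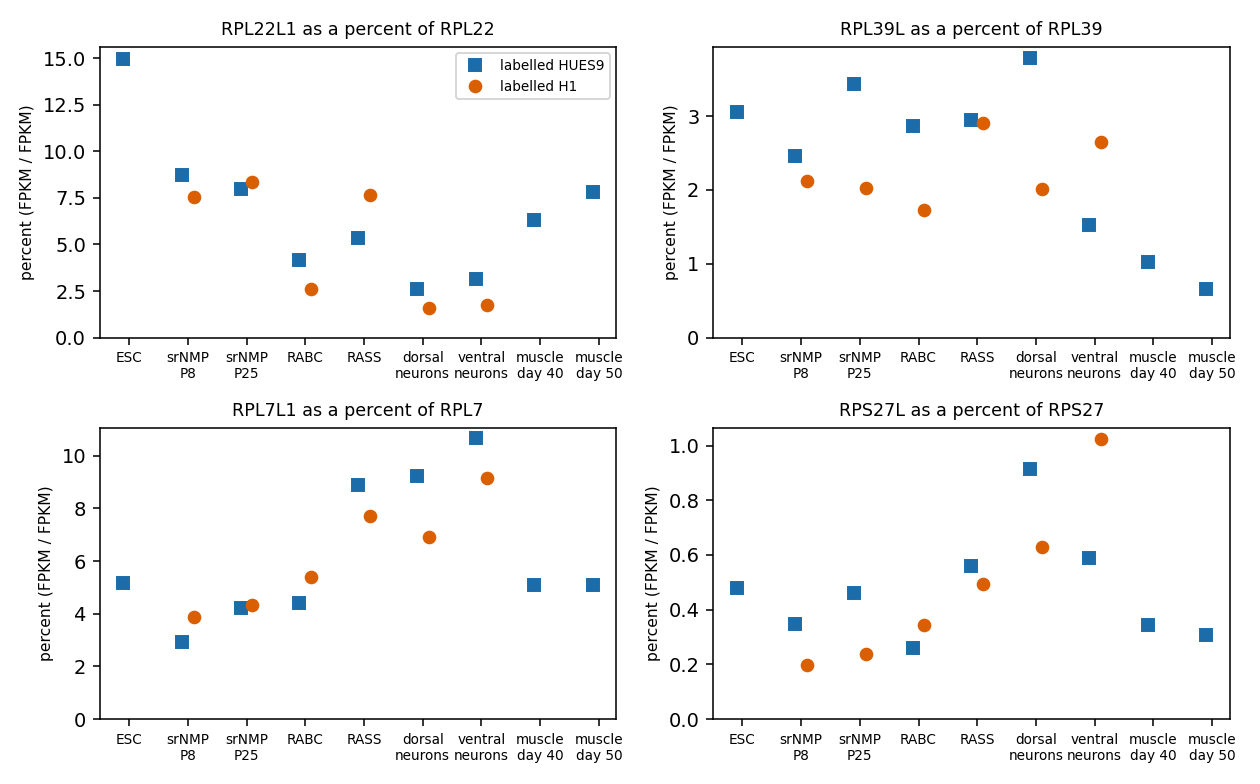
FPKM of 4 paralogs as a percent of the FPKM of their canonical partner, 1 point per library (squares, labelled HUES9; circles, labelled H1). RPL22L1 is highest in the ESC library (14.9%) and low in neurons, RPL39L is lowest in muscle, and RPL7L1 and RPS27L take their highest values in neurons.

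Between srNMPs and neurons lie the 7-day progenitors, and their conditions differed. Against srNMPs, the averaged progenitors had a median log2 difference of −0.582 over the members and 0.021 over all genes. Only 4 members fell at an adjusted p under 0.05, against 1.69% of all genes lower and 1.73% higher, namely RPL22L1 (−1.30), RPL13A (−0.761), RPL15 (−0.700) and RPL28 (−0.483), while 68 had an unadjusted p under 0.05. Single libraries moved the count to 67 without the H1 srNMP library of passage 8, to 3 without the RASS library labelled H1 and to 0 without any of the other 6 libraries in turn or without both RASS libraries. Set against srNMPs separately, a comparison added after the data were seen, RABC had 0 members called (2 with an unadjusted p under 0.05) and a median of −0.236, with 0.226% of all genes lower and 0.120% higher. RASS had 13 members lower and none higher, against 1.54% and 2.03% of all genes, and a median of −0.883.

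Directly compared, RASS progenitors had less ribosomal protein mRNA than RABC progenitors in nearly all members, but no single member passed the test. The median log2 difference was −0.642 over the members (−0.321 with quantile normalization) and 0.026 over all genes. None of 82 was called (limma adjusted p 0.138 or higher), 44 had an unadjusted p under 0.05, and 0.198% of all genes were called lower and 0.318% higher. In 73 of 82 members both RASS libraries lay below both RABC libraries, against 18.4% of all genes. RPL12 had 1032 (labelled H1) and 764.7 FPKM (labelled HUES9) in RASS, against 1733 and 2019 FPKM in RABC (log2 difference −1.07 ± 0.240 SE, limma adjusted p = 0.18). RPL13A, which also carries a regulatory role outside the ribosome, had 1196 and 1126 FPKM in RASS, against 2140 and 2136 FPKM in RABC (log2 difference −0.881 ± 0.210 SE, limma adjusted p = 0.216). The 12 proliferation genes summed to 1107 and 1176 FPKM in RASS, against 1045 and 1104 FPKM in RABC, so that their summed level was not lower in RASS, and by limma 0 were called and 0 had an unadjusted p under 0.05. Summed levels of other markers differed without overlap. The 7 neural progenitor markers summed to 943 and 1154 FPKM in RASS, against 631 and 671 FPKM in RABC. For 6 glia markers the sums were 20.6 and 64.3 FPKM in RASS, against 4.05 and 6.97 FPKM in RABC. The 8 neuromesodermal progenitor markers summed to 259.5 and 262.1 FPKM in RASS, against 146.1 and 163 FPKM in RABC. Single genes of this last list went both ways. SP5 (log2 difference −3.705 ± 0.514 SE, limma adjusted p = 0.04), FGF17, CDX2 and TBXT had negative differences. SOX2 (0.904 ± 0.210 SE, limma adjusted p = 0.202), WNT5A, FGF8 and NKX1-2 had positive ones. Of these genes only SP5 was called. The part of all these markers in the result was not tested. Mitochondrial ribosomal protein genes had a median of −0.090 and ribosome biogenesis genes −0.195, with none called among 77 and 52 tested (3 and 0 with an unadjusted p under 0.05). Non-ribosomal mRNAs known to carry a TOP tract had a median of −0.607 over 19 genes, of which 1 was called lower.

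Neurons were also lower than progenitors. With both conditions averaged, 39 of 82 members fell and none rose, against 16.5% of all genes lower and 21.3% higher, with a median log2 difference of −0.500 over the members and 0.040 over all genes. RPS3 fell by 0.998 ± 0.141 on the log2 scale (SE, limma adjusted p = 0.00229), and RPL22L1, RPL12, RPLP0, RPS2 and RPSA fell by 1.24, 0.980, 0.977, 0.947 and 0.938. RPSA is the 40S protein also known as a laminin receptor. The 2 conditions gave unlike values here too. Against RABC, neurons had 55 members lower and none higher (12.9% and 18.0% of all genes) and a median of −0.819. Against RASS they had 2 members lower, RPL22L1 and RPS3, and none higher (11.1% and 13.7% of all genes), and a median of −0.195. These comparisons share the neuron libraries, and the difference between them is the comparison of RASS with RABC given above. The averaged count fell to between 10 and 26 when any 1 of the 8 libraries was left out and to 0 within HUES9, and the median was −0.154 with quantile normalization. All 12 proliferation genes fell as well, with summed levels of 157 to 744 FPKM in neurons, against 1045 to 1176 FPKM in progenitors, and their part in the result was not tested.

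Between ventral and dorsal neurons no member was called (limma, 2 with an unadjusted p under 0.05; 1.47% of all genes higher and 0.573% lower), and the median log2 difference, ventral minus dorsal, was 0.104. The members that differed most were RPS10, with 2.34 and 5.36 FPKM in ventral and 0.810 and 1.98 FPKM in dorsal neurons, and RPL36, with 473.5 and 397.5 FPKM in ventral and 257 and 303.9 FPKM in dorsal neurons. Their limma adjusted p-values were 0.328 and 0.267. RPS10 was low in all these libraries, and its level is uncertain as given above.

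In muscle the family was also below srNMPs, though by less. At an adjusted p under 0.05, 47 of 82 members fell and none rose, against 31.6% of all genes lower and 18.2% higher, and the median log2 difference was −0.661 over the members and −0.224 over all genes. Besides RPL39L, the largest falls were RPS21 (−1.33 ± 0.282 SE), a small 40S protein, RPL17 (−1.24), RPS7 (−1.15), RPL7A (−1.08) and RPSA (−1.08). RPS21 had 77.0 and 92.6 FPKM in muscle, against 164.8, 303.9, 225.9 and 155.4 FPKM in srNMPs, without overlap. At the other end RPS4X, an X-linked 40S gene, had 1218 and 1530 FPKM in muscle. In srNMPs it had 933.5 and 1027 FPKM in H1 and 2060 and 1122 FPKM in HUES9. The muscle values, all HUES9, lay within the HUES9 srNMP range. RPS4X followed the line labels in most groups, so the H1 values are not a like comparison. Proliferation genes moved with this difference too, at 153 to 162 summed FPKM in muscle, against 975 to 1197 FPKM in srNMPs, with 11 of 12 lower. Muscle was sampled only in HUES9, and its libraries carried fibroblast markers as given above. The part of either list in these values was not tested. The count was 10 without the day 40 library, 29 without day 50, 26 and 30 without the H1 passage 25 and the HUES9 passage 8 srNMP libraries, and 73 without the H1 passage 8 srNMP library. It was 26 with equal summed FPKM and 5 within HUES9 libraries alone.

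Against neurons, the median of the family was higher in muscle, while the share of members called higher was no larger than that of all genes. Here 12 of 82 members rose (14.6% of all genes) and 1 fell (31.9% of all genes), and the medians were 0.415 over the members and −0.341 over all genes. With quantile normalization the members' median was 0.10. In 56 of 82 members both muscle libraries lay above all 4 neuron libraries, against 19.0% of all genes. In 5 members both lay below, against 46.4% of all genes. After RPL22L1, the largest rises were RPL12 (1.12 ± 0.219 SE), RPS12 (0.979), RPS18 (0.787), RPS20 (0.751) and RPL10A (0.722), and RPL39L fell by 1.20, a call lost without either muscle library. RPL12 had 1212 and 1524 FPKM in muscle, against 549.1, 509.4, 886.8 and 733.4 FPKM in neurons, and was higher in both muscle libraries than in all 4 neuron libraries. RPL38 had 210.4 and 241.3 FPKM in muscle, against 221.5 to 299.8 FPKM in neurons. It fell relative to the family (−0.670 ± 0.137 SE, limma adjusted p = 0.00325). In this way 11 members were lower and 4 higher, against 47.2% and 8.75% of all genes. These shares of all genes are no like background, since the subtracted median was itself higher in muscle. The count of 13 was 1 without the day 50 library, 3 to 6 without any 1 of the other 5 libraries, and 34 with equal summed FPKM.

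Between srNMPs and ESCs, and between the srNMP passages, the family showed no called difference. Against the single ESC library, 0 of 82 members were called (limma, 1 with an unadjusted p under 0.05), against 8.73% of all genes higher and 7.93% lower, and the median log2 difference was 0.118. It was −0.123 without the HUES9 srNMP library of passage 8, so its direction rests on that library. RPL41 had 2973, 4973, 3892 and 2931 FPKM in srNMPs, against 2155 FPKM in the ESC library (limma adjusted p = 0.191), and RPS10 had 4.08, 6.94, 6.09 and 3.86 FPKM, against 18.6 FPKM (limma adjusted p = 0.0746). Of 52 ribosome biogenesis genes, 13 were lower and 1 higher, with a median of −0.699. NOP16 and DDX21, both nucleolar, fell by 1.73 and 1.46 on the log2 scale. MYC, a transcriptional activator of ribosome production, had 0.560 to 2.31 FPKM in srNMPs, against 27.5 FPKM in the ESC library (log2 difference −3.76 ± 0.353 SE). The log2 difference of MYCN was 0.068 ± 0.486 (SE). In RASS against RABC, where the family's median was lower, MYC had a difference of 1.587 ± 0.306 (SE, limma adjusted p = 0.113). The part of MYC in these values was not tested. At passage 25 against passage 8, 0 of 82 were called (limma, 1 with an unadjusted p under 0.05; 0 of all genes) and the median was −0.221. It was 0.127 without the HUES9 library of passage 8 and −0.592 without the H1 library. The largest differences were those of RPS29, with 29.3 and 21.6 FPKM at passage 25 and 30.8 and 46.8 FPKM at passage 8, and RPS12, with 1241 and 1198 FPKM at passage 25 and 1188 and 2515 FPKM at passage 8, with the HUES9 library of passage 8 highest for both.

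Other lists of the translation machinery also held genes lower in neurons than in srNMPs, where 23.2% of all genes were called lower and 28.8% higher. Against srNMPs, RACK1, a 40S component outside the name patterns, fell by 1.33 on the log2 scale. Of 52 genes of ribosome biogenesis and rRNA processing, 45 fell and 1 rose, with a median of −0.914. NPM1 fell by 2.29 and FBL, the rRNA methyltransferase, by 1.87, and SBDS, which frees 60S subunits of EIF6, rose by 0.798. Of 77 mitochondrial ribosomal protein genes tested, 49 fell and none rose, with a median of −0.690. In muscle against srNMPs, 61 of these fell with a median of −1.09 (31.6% of all genes lower), and against neurons 11 fell and none rose with a median of −0.352. That share of mitochondrial genes called is below that of all genes (31.9% lower, median −0.341). Of 19 non-ribosomal mRNAs known to carry a TOP tract, 16 fell in neurons with a median of −1.07. Initiation factors had 24 of 35 lower and 2 higher, and elongation factors 6 of 10 lower and 1 higher.

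Among the elongation factors, EEF1A2 changed the other way. This is the form of elongation factor 1A that takes over from EEF1A1 in mature neurons and muscle. EEF1A2 had 154.1, 96.2, 375.6 and 269.2 FPKM in neurons, against 0.186 to 0.668 FPKM in srNMPs (log2 difference 7.16 ± 0.368 SE, limma adjusted p = 7.21e-05). In muscle it had 0.536 and 1.27 FPKM. EEF1A1 averaged lower in neurons, by 0.820 ± 0.161 on the log2 scale (SE, limma adjusted p = 0.00513). MYCN fell by 1.63 in neurons, and MYC rose by 1.12 on the log2 scale but stayed at 2.37 to 4.43 FPKM.

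Of the 82 members, 4 (4.88%) had the same sign of HUES9 minus H1 in the 5 groups other than RASS, against 11.3% of all genes tested, so the count is no result about the family. All 4 had the opposite sign in RASS, as did 82.8% of all genes with 1 sign in the other 5 groups. They were RPS26, a 40S protein at the mRNA exit that is mutated in Diamond-Blackfan anemia, RPL14, RPS4X and RPL28. RPS26 had 723.4 FPKM in HUES9 and 137.9 FPKM in H1 srNMPs of passage 8, 471.8 and 193.8 FPKM at passage 25, 433.1 and 126.9 FPKM in RABC, 259.7 and 84.3 FPKM in dorsal and 284.9 and 67.6 FPKM in ventral neurons. In RASS it had 129.8 FPKM in the library labelled HUES9 and 334.6 FPKM in that labelled H1. The ESC and muscle libraries, all HUES9, had 621.7, 315.0 and 372.3 FPKM. With labels as given, no member was called between lines (limma, 0 with an unadjusted p under 0.05 apart from RPS26 at 1.29 ± 0.466 SE, adjusted p = 0.883; 0 of all genes called). With the labels of the RASS pair exchanged, the fitted difference was 1.74 ± 0.157 for RPS26, 0.687 ± 0.142 for RPS4X and 0.642 ± 0.103 for RPL14 (log2, SE). These values are a description, since the exchange was tried and the genes were named because of their opposite sign in RASS. Whether the RASS libraries were exchanged was not tested beyond these values. With the exchange, 79 members were called in neurons against srNMPs.

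**Figure D5:**
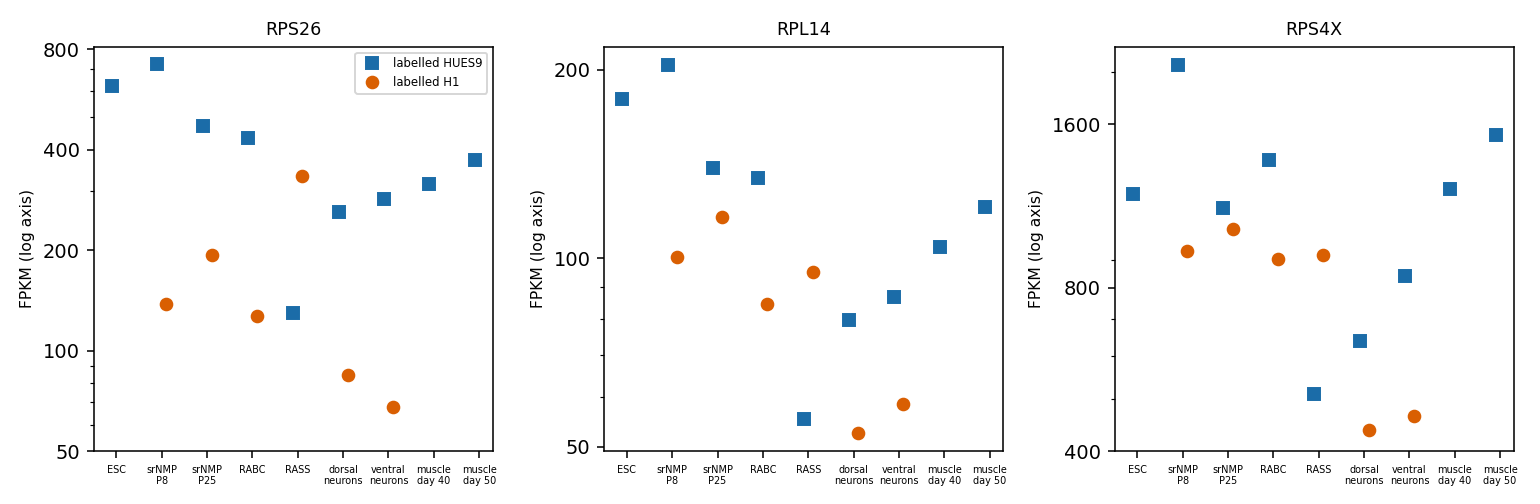
FPKM on a log axis of RPS26, RPL14 and RPS4X in each library (squares, labelled HUES9; circles, labelled H1). In the 5 paired groups other than RASS the HUES9 library is higher for all 3 genes, and in RASS the library labelled H1 is higher.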

How the data were processed

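Polyadenylated, strand-specific RNA-seq libraries were used. The deposited values are FPKM per gene symbol; the submitters' processing notes name Trimmomatic, HISAT2, HTSeq, Cufflinks and hg18, without versions used here. Of values up to 0.1 FPKM in 3026 genes, 87.3% of 13973 were whole multiples of 1 unit within 2%, which gave relative depth; counts were not recovered. 1 value column without a sample was not used.

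In R 4.3.3, limma 3.58.1 was fitted to log2(FPKM + 1) of the 14129 genes that reached 1 FPKM in any library, with 9 group means, cell line as replicate block and a mean-variance trend (5 residual and 2.16 prior degrees of freedom). Groups of 1 library were assumed to vary like the others. Tests were two-sided, with Benjamini-Hochberg adjustment over all genes and a threshold of 0.05. Differences are on the log2(FPKM + 1) scale, which understates changes of low genes. The tests were checked on simulated data.

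The block is the cell line given by the labels: line differences of the 5 groups other than RASS correlated at 0.069 to 0.377, and RASS with these at −0.533 to −0.167. The members and gene lists were chosen with earlier results of these data known. Named members were all paralogs, up to 6 called members of largest change in each direction with a group mean of at least 5 FPKM (the 2 largest where none was called), the 5 highest and lowest levels, and the 3 most and least variable. Others named, RPL38, RPL14 and RPS4X among them, were chosen after their values were seen. A few genes that the rule names are not reported here. Gene starts came from RefSeq (GRCh38.p14) by symbol.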

Additional observations from a re-analysis of the deposited data

Results flagged for a closer look

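RPL17 stood at 10.85 FPKM in the H1 ventral neuron library, far from the other 3 neuron libraries (gap over range 0.883), and RPS12 at 2515.1 FPKM in the HUES9 srNMP library of passage 8, far from the other 3 srNMP libraries (0.96). Of 81 groups of 4 libraries examined, 2 passed Dixon's critical value for this size, which chance passes in about 5% of groups.

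The ribosomal protein share of summed FPKM, passage 25 minus passage 8, was −5.47 percentage points in HUES9 and 1.45 percentage points in H1. This difference between lines was not tested. RPS26, HUES9 minus H1 as labelled, differed by 2.383 on the log2(FPKM + 1) scale in srNMPs of passage 8, 1.279 at passage 25, 1.763 in RABC, −1.359 in RASS, 1.612 in dorsal and 2.059 in ventral neurons. The difference of RASS from the other groups was not tested.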

How the results depend on the processing

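Absolute depth is unknown, and ESC and muscle lack an H1 library. For members called, the values that moved were as follows. In srNMPs against ESCs, quantile normalization gave 3, and no replicate block, the RASS exchange and subtraction of the members' median gave 1 each. In progenitors against srNMPs, the count was 0 with no filter, with only the libraries compared, within HUES9 and without both RASS libraries, 2 with quantile normalization and relative to the members, 8 with the exchange and 14 without the replicate block. In neurons against progenitors it was 19 with no filter, 25 with quantile normalization, 0 within HUES9 and 17 relative to the members. In neurons against srNMPs it was 50, 17 and 28 with quantile normalization, within HUES9 and relative to the members. In muscle against srNMPs it was 28 with no filter, 26 with equal summed FPKM or quantile normalization, 1 with only the libraries compared, 5 within HUES9 and 7 relative to the members. In muscle against neurons it was 4 with no filter, 34 and 35 with equal sums of all or other genes, 26 without the replicate block and 1 within HUES9. The block changed no other count by over 1.5 times.

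Median log2 differences moved to −0.321 in RASS against RABC with quantile normalization. In neurons against progenitors they were −0.353 with equal sums, −0.154 with quantile normalization and −0.819 without both RASS libraries. With equal sums, equal sums of other genes and quantile normalization they were −0.712, −0.889 and −0.448 in neurons against srNMPs, and −0.347, −0.446 and −0.278 in muscle against srNMPs. In muscle against neurons quantile normalization gave 0.10. Shares without the top member were 20.04% in RABC, 11.64% in dorsal and 12.66% in ventral neurons. Without the 10 highest other genes they were 22.47% in RABC, 13.04% in dorsal and 13.98% in ventral neurons, 18.54% in muscle at day 40 and 20.44% at day 50.

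Leaving out 1 library gave counts of 0 to 1 for srNMPs against ESCs, 0 to 67 for progenitors against srNMPs, 10 to 26 for neurons against progenitors, 70 to 78 for neurons against srNMPs, 10 to 73 for muscle against srNMPs and 1 to 6 for muscle against neurons. Medians ranged from −0.123 to 0.252 for srNMPs against ESCs and from −0.592 to 0.127 for passage 25 against passage 8, both reversing without the HUES9 library of passage 8. They ranged from −0.743 to −0.388, −0.782 to −0.529, −0.560 to −0.448, −1.226 to −0.854, 0.066 to 0.185, −0.778 to −0.462 and 0.306 to 0.527 for progenitors against srNMPs, RASS against RABC, neurons against progenitors, neurons against srNMPs, ventral against dorsal neurons, muscle against srNMPs and muscle against neurons. The causes were not tested.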
